A study of Mus musculus with 4 samples.

Results

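Integrins, cadherins, claudins, connexins and their catenin and tight junction partners were examined in lung RNA of bleomycin-treated mice. Members were taken by gene symbol: integrin subunits and genes named after them, numbered cadherins and claudins, alpha, beta and gamma connexins, tight junction proteins and catenins. Cdh5, Cdh11 and Cldn5 were left out by the rule that defined the set. The array carried 83 such genes on 92 probes, and 43 of them had values for 3 or 4 of the mice, among 8384 genes that reached this minimum out of 13410 named genes. Of the 43 genes, 30 had 4 values and 13 had 3.

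Each of 4 mice of the inbred strain A/J that had received bleomycin, a DNA-damaging drug used to injure the lung, was compared on its own 2-colour array with the same pool of control A/J lung RNA. RNA of the mice and of the pool was amplified, per the labels. The comparison asks how expression differs between treated and control lungs. The sources used here do not give the dose, route, time, age or sex, or how many control mice were pooled.

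A value is a log ratio between a treated mouse and the pool, read here as log2, after each array was centred on its median. The labels do not say which RNA is on top of the ratio, so genes are placed above or below 0 and not called higher or lower in treated lungs. If the pool is on top, every sign turns and sizes and p-values stay. Since a value is a ratio, it does not show how strongly a gene is expressed. In whole lung, a change in the share of a cell type and a change of RNA per cell cannot be told apart. The pool counts as 1 control sample, so the tests leave out the spread between control mice, and with 4 arrays the number of mice limits the precision.

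Integrins are pairs of an alpha and a beta subunit that hold cells to the extracellular matrix or, on leukocytes, to other cells. Cadherins join neighbouring cells at adherens junctions and are anchored to actin by catenins. Claudins seal the space between epithelial or endothelial cells at tight junctions, where Tjp scaffolds bind them, and connexins form the gap junction channels through which cells exchange small molecules. In the lung these proteins keep the thin alveolar barrier closed, and the epithelial integrin of the Itgav and Itgb6 products is known for releasing active TGF-beta, a growth factor of fibrosis.

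None of the 43 adhesion and junction genes passed the test of the mean log ratio against 0 (0 of 43; limma, Benjamini-Hochberg adjusted p at most 0.05 over all genes), where 12.5% of all genes tested did. That is 0 members above 0, beside 7.69% of all genes, and 0 below, beside 4.81%. With mice 1 and 2 and mice 3 and 4 as a random block, the count was also 0 of 43, beside 4.79%. The labels do not give these pairs, which are those whose arrays resembled each other in these same values. At an unadjusted limma p under 0.05 there were 12 members, 27.9%, beside 31.8% of all genes. Of these 12, 5 lay above 0 and 7 below, which is 11.6% and 16.3%, beside 18% and 13.8% of all genes. The left-out genes bear on the count of 0: Cdh11 and Cldn5 both passed, at 0.83 ± 0.22 and 0.83 ± 0.28 (SD, n = 4), and with them the count would be 2 of 45. Cldn5 was lost without mouse 4 (limma adjusted p = 0.0521). Cdh5 did not have enough values. The median of the members' mean log ratios was -0.05, beside 0.00 over all genes, and the medians per mouse lay between -0.06 and 0.00. The members' standard deviations between mice had a median of 0.20, and those of all genes 0.17.

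Missing the threshold does not show that a gene did not differ. The 95% interval of the mean stayed within 2-fold in both directions for 39 of the 43 genes, or 90.7%, as for 91.3% of all genes. The intervals of Itgb2 (0.12 to 1.41), Cdh1 (-0.09 to 1.39), Gjc1 (0.17 to 1.12) and Cdh2 (-1.18 to -0.05) reached past 2-fold. These intervals are not adjusted for the number of genes. Cldn10, among the 39, is an average of 2 probes with means on opposite sides of 0.

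**Figure D1:**
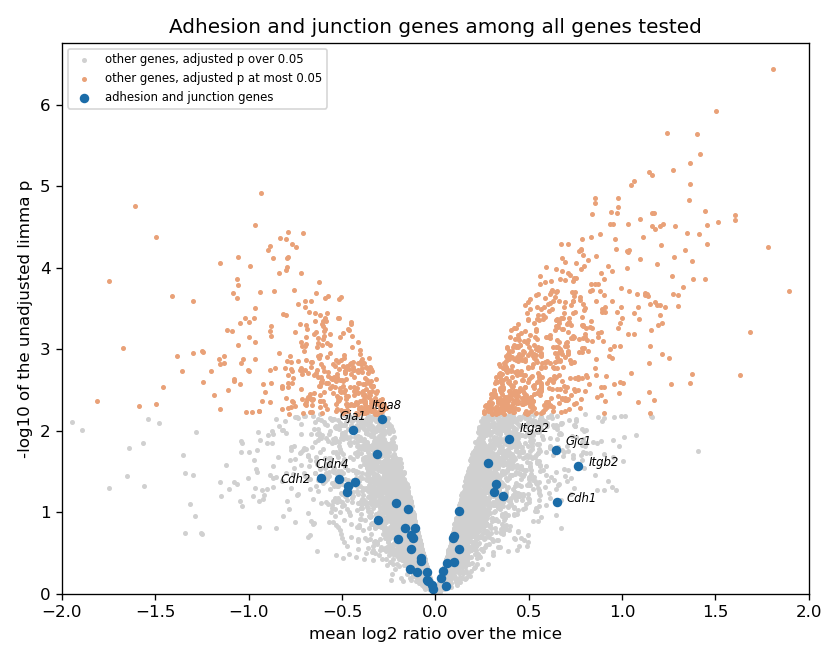
Mean log2 ratio over the mice (x axis) against -log10 of the unadjusted limma p (y axis) for the 8384 genes tested; blue points are the 43 adhesion and junction genes, orange points other genes with an adjusted p at most 0.05 and grey points the remaining genes. The blue points all lie below the orange ones in height, and 14 genes beyond a mean of 2 on either side are not drawn.

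Arrays of mice 1 and 2 resembled each other, as did those of mice 3 and 4. Over the members, Pearson's r across genes was 0.595 between mice 1 and 2 (37 genes) and 0.805 between mice 3 and 4 (36 genes), and between 0.0721 and 0.327 for the other pairs of mice. Over all spots it was 0.728 and 0.858, and 0.453 to 0.574 for the others. These are correlations across genes that share the same pool, and genes are not independent replicates. What sets the mice apart was not stated in the labels.

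**Figure D2:**
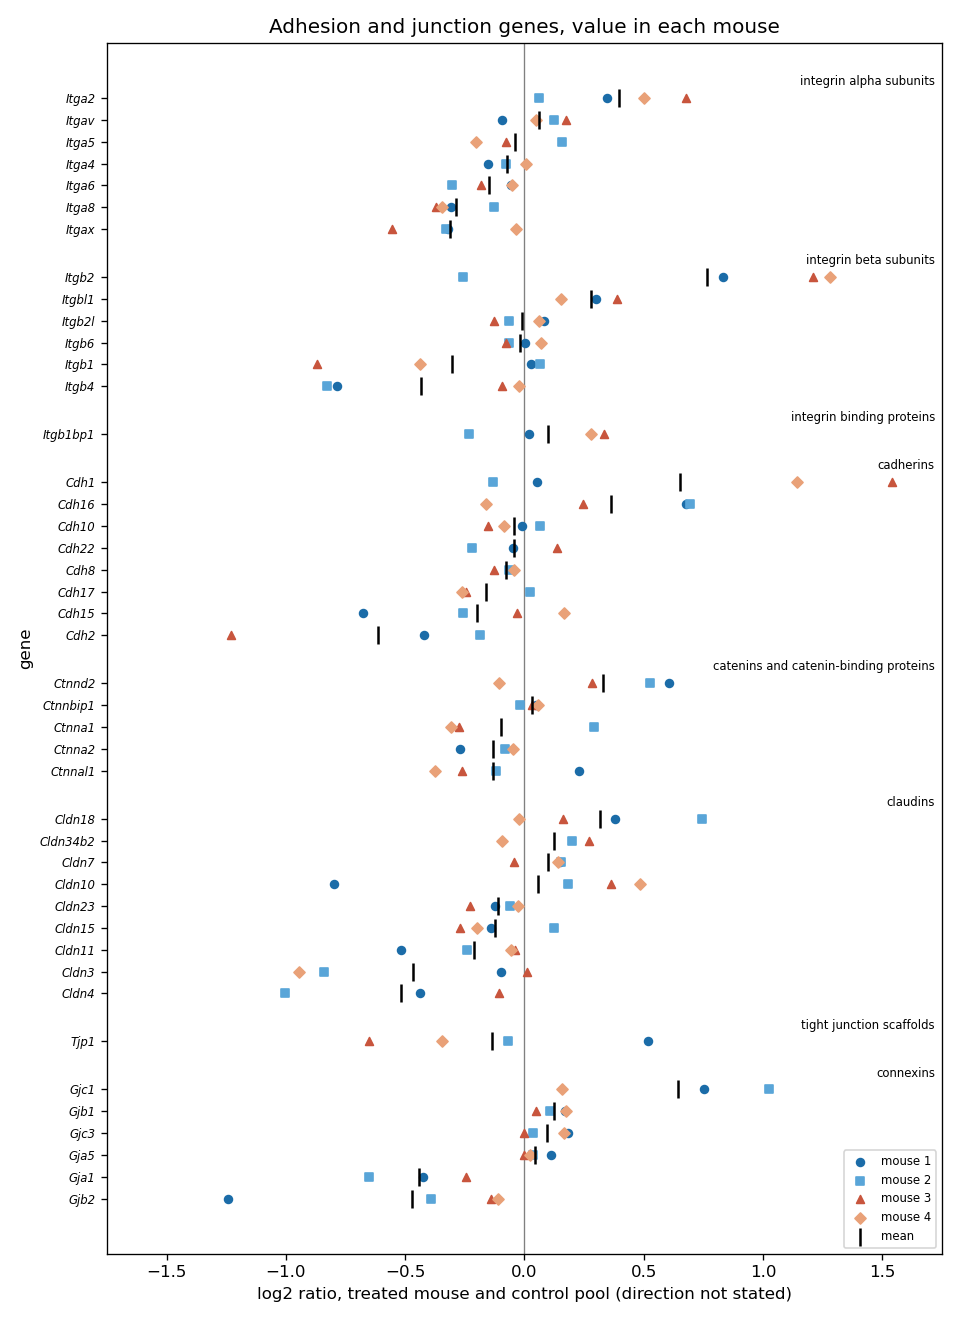
Log2 ratio (x axis) of each of the 43 adhesion and junction genes (rows, by family) in each mouse; black bars are means over the mice. Most genes lie near 0, while Cdh1 stands at 1.54 in mouse 3 and 1.14 in mouse 4, with the other mice near 0.

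Of the integrin alpha subunits, 7 of 14 were tested, with a median of -0.08. Itga8, whose product pairs with Itgb1 on smooth muscle cells and myofibroblasts, had values of -0.31, -0.13, -0.37 and -0.35 in mice 1 to 4. It was below 0 in every mouse, with a mean of -0.29 ± 0.11 (SD, n = 4), and of all members it came closest to the threshold (limma adjusted p = 0.0528). When a value on all 4 arrays was required, it passed (limma adjusted p = 0.0486), as 1 of 30 members, beside 17.6% of all genes. Over all alternatives its adjusted p ranged up to 0.162. Itgax, the alpha subunit best known from dendritic cells and alveolar macrophages, had values of -0.32, -0.33, -0.56 and -0.04. Its mean was -0.31 ± 0.21 (SD, n = 4; limma adjusted p = 0.0913), also below 0 in every mouse.

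Itga2, the alpha subunit of a collagen receptor, lay above 0 in every mouse, at 0.35, 0.06, 0.67 and 0.50. The mean was 0.40 ± 0.26 (SD, n = 4; limma adjusted p = 0.0711), and without mouse 2, which had the lowest value, the gene passed at a mean of 0.51 (limma adjusted p = 0.0498). In that fit 2 of 43 members passed, beside 6.83% of all genes. Removing the lowest value raises the mean, and over all alternatives the adjusted p of Itga2 (limma) ranged up to 0.195. Itga6, a subunit of laminin receptors, had a small negative value in every mouse, from -0.30 to -0.05 (limma adjusted p = 0.222). Itgav, which pairs with several beta subunits, had a mean of 0.06 ± 0.12 (SD, n = 4), with a 95% interval from -0.12 to 0.24. Itga4, a leukocyte subunit, and Itga5, of the fibronectin receptor, had means of -0.08 and -0.04 over 3 mice each.

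Of the integrin beta subunits and beta-like genes, 6 of 9 were tested. Itgb2, the common beta subunit of the leukocyte integrins, had the largest mean of all tested members, 0.77 ± 0.71 (SD, n = 4; limma adjusted p = 0.112). Its values were 0.83, -0.26, 1.21 and 1.28 in mice 1 to 4. Thus 3 mice were well above 0 and mouse 2 was below it. Without mouse 2, the lowest value, the gene passed at a mean of 1.11 (limma adjusted p = 0.0201). Removing the lowest value raises the mean, and over all alternatives the adjusted p of Itgb2 (limma) ranged up to 0.275. Its partner Itgax was below 0 in all 4 mice, and whether the pair of genes differed was not tested. General leukocyte markers, of which 11 of 18 were tested, had medians of -0.42, -0.28, -0.33 and -0.08 in mice 1 to 4, with 0 genes past the test above 0 and 3 below (S100a8, S100a9 and Cd52). With the random block of mice, Cd52 did not pass. Of the 11 leukocyte markers, 3 had means above 0 and 8 below. Above 0 in every mouse with a value were Ptprc, at a mean of 0.29, and Lcp1, at 0.63. Neither passed (limma adjusted p = 0.1185 and 0.0926). Macrophage markers, 6 of 15 tested, had medians of -0.63, -0.78, 0.33 and 0.31, with 2 past the test above 0 (Siglecf and Mrc1) and 0 below. The other 4 macrophage markers had means below 0, and the median of the 6 means was -0.28. Neutrophil markers, 4 of 12 tested, had medians from -2.35 to -0.76, with 2 past the test below 0 and 0 above, the same S100a8 and S100a9. The part of these cells in the values of Itgb2 and Itgax was not tested.

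Itgb4, the beta subunit of hemidesmosomes, which fix epithelial cells to the basement membrane, had values of -0.79, -0.83, -0.09 and -0.02. Mice 1 and 2 were low and mice 3 and 4 near 0, and the mean of -0.43 ± 0.43 (SD, n = 4) did not pass (limma adjusted p = 0.143). Itgb1, the beta subunit shared by most matrix receptors, had the opposite order, with 0.03 and 0.06 in mice 1 and 2 and -0.87 and -0.44 in mice 3 and 4. Its mean was -0.30 ± 0.44 (SD, n = 4; limma adjusted p = 0.272). Itgb6, the partner of Itgav on epithelial cells, stayed between -0.08 and 0.07, with a mean of -0.02 ± 0.07 (SD, n = 4) and a 95% interval from -0.18 to 0.14. Itgbl1, a beta-like gene, had a mean of 0.28 ± 0.12 (SD, n = 3; limma adjusted p = 0.105), and Itgb2l of -0.01 ± 0.10 (SD, n = 4). Itgb1bp1, whose product binds the cytoplasmic tail of the Itgb1 protein, had a mean of 0.10 ± 0.26 (SD, n = 4).

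Of the cadherins, 8 of 15 were tested, 2 with means above 0 and 6 below. Cdh1, the cadherin of epithelial cells, had values of 0.05, -0.13, 1.54 and 1.14 in mice 1 to 4. The values of mice 3 and 4 were over 2-fold and those of mice 1 and 2 were near 0, so that the mean of 0.65 ± 0.82 (SD, n = 4) did not pass (limma adjusted p = 0.196). The spread of Cdh1 between mice was the largest of the tested members. Cdh2, the cadherin of heart muscle, nerve and mesenchymal cells, had values of -0.42, -0.19 and -1.23 in mice 1 to 3 and none in mouse 4. All 3 values were below 0, at a mean of -0.61 ± 0.55 (SD, n = 3; limma adjusted p = 0.135). In mouse 3, which had the highest Cdh1 value, Cdh2 had its lowest. Mouse 4, the other mouse with a high Cdh1 value, had none for Cdh2. Whether Cdh1 and Cdh2 vary in opposite directions was not tested.

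Epithelial markers, 14 of 19 tested and Cldn18 among them, had medians of 0.04, 0.00, 0.15 and 0.08 in mice 1 to 4, with 1 past the test above 0 (Epcam) and 0 below. Of the 14 epithelial markers, 7 had means above 0 and 7 below. The part of epithelial cell numbers in the Cdh1 values was not tested. Striated muscle markers, 15 of 25 tested, had medians of -2.68, -0.84, -0.38 and -0.88, with 4 past the test below 0 (Tnnc2, Myl1, Hrc and Nppb) and 0 above, and 2 with the random block (Tnnc2 and Myl1). Their part in the values of Cdh2 and of Cdh15, the cadherin of muscle precursor cells, was not tested. Cdh15 had values of -0.68, -0.26, -0.03 and 0.16 (limma adjusted p = 0.381). Cdh16, a cadherin known from kidney, had values of 0.67, 0.69, 0.24 and -0.16 (limma adjusted p = 0.178). The remaining cadherins Cdh8, Cdh10, Cdh17 and Cdh22 had means between -0.16 and -0.04.

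Of the catenins and catenin-binding genes, 5 of 8 were tested. Ctnnb1, which encodes beta-catenin, the link from cadherins to alpha-catenin and a transcriptional partner in Wnt signalling, had a value in mice 1 and 2 only, at 1.50 and 1.29. In mouse 1 and in mouse 2 this was the highest value of any member, but the gene did not reach the minimum of 3 arrays. When 2 values were enough, Ctnnb1 passed at a mean of 1.40 ± 0.14 (SD, n = 2; limma adjusted p = 0.0157), as 1 of 58 members, beside 10.1% of all genes in that setting. Both values come from arrays that resembled each other, and mice 3 and 4 had none.

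Ctnnd2, a delta-catenin known from neurons, had values of 0.60, 0.53, 0.28 and -0.11, and its mean of 0.33 ± 0.32 (SD, n = 4) did not pass (limma adjusted p = 0.149). Ctnna1, the alpha-catenin of epithelia, had 0.29 in mouse 2 and -0.28 and -0.31 in mice 3 and 4, at a mean of -0.10 ± 0.34 (SD, n = 3). Ctnna2 and the alpha-catenin-like gene Ctnnal1 both had a mean of -0.13, with all 3 values of Ctnna2 below 0. Ctnnbip1, an inhibitor of beta-catenin, stayed between -0.02 and 0.06. Ctnnd1, whose product stabilises cadherins at the membrane, had 2 values, 0.03 and 0.20.

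Of the claudins, 9 of 21 were tested, with a median of -0.11. Cldn3 and Cldn4, both claudins of lung epithelium, lay farthest below 0. Cldn3 had values of -0.10, -0.84, 0.01 and -0.95 in mice 1 to 4, at a mean of -0.47 ± 0.50 (SD, n = 4; limma adjusted p = 0.153). Cldn4 had values of -0.44, -1.002 and -0.11 in mice 1 to 3 and none in mouse 4, at a mean of -0.52 ± 0.45 (SD, n = 3; limma adjusted p = 0.138). Among the mice with both values, the lowest was mouse 2 and the highest mouse 3 for each gene. Whether the genes vary together was not tested.

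Cldn3 and Cldn4 are neighbours on mouse chromosome 5, with 0 genes listed between them in the RefSeq table of GRCm38.p6. Their promoters, 250 bases before to 50 bases after the transcription start as listed by RefSeq, are shown because they belong to neighbouring genes with means on the same side of 0. Capitals mark the E-box CAGGTG, a binding sequence of Snail and Zeb repressors, and TGACTCA, a binding sequence of AP-1 factors, searched on both strands (CACCTG and TGAGTCA on the other), with no overlap between motifs. The Cldn3 promoter lies at chr5:134985964-134986263 on the plus strand and that of Cldn4 at chr5:134946885-134947184 on the minus strand, each written 5′ to 3′.
Cldn3: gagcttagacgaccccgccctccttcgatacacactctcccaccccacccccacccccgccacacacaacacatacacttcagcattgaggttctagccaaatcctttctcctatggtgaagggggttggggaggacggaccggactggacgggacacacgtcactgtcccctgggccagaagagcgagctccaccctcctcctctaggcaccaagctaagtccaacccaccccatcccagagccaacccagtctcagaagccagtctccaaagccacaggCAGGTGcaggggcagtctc
Cldn4: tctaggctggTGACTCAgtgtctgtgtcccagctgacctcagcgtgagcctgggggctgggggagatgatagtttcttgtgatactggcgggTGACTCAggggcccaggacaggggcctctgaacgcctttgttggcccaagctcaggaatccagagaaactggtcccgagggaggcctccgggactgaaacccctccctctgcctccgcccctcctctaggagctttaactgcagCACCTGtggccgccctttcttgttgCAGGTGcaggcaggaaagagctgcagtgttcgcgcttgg
The Cldn3 window held the E-box 1 time, 32 bases after the start, counting the start as 1. The Cldn4 window held it 2 times, and TGACTCA 2 times. Of 32851 promoters in the table, 20.2% held the E-box on either strand and 5.2% held TGACTCA. A match describes letters in the window and does not show that a factor binds there.

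Cldn18, the most abundant claudin of the alveolar epithelium, had values of 0.38, 0.74, 0.16 and -0.02 in mice 1 to 4. The mouse 1 value averages 2 probes, at 0.08 and 0.67, and the other mice had a value for the latter probe only. The Cldn18 mean of 0.32 ± 0.33 (SD, n = 4) did not pass (limma adjusted p = 0.166). Cldn7, an epithelial claudin, had 0.15, 0.15, -0.04 and 0.14, with a 95% interval of the mean from -0.07 to 0.27. Cldn11 was below 0 in every mouse, from -0.52 to -0.04 (limma adjusted p = 0.202). Cldn15, Cldn23 and Cldn34b2 had means of -0.12, -0.11 and 0.13. The only tested tight junction scaffold was Tjp1, whose product ties claudins to actin. It had values of 0.52, -0.07, -0.65 and -0.34 in mice 1 to 4. No other tested member had values beyond 0.5 on both sides of 0. Its mean was -0.14 ± 0.50 (SD, n = 4; limma adjusted p = 0.655).

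Of the connexins, 6 of 11 were tested, 4 with means above 0 and 2 below. Gja1, the most widespread connexin and one of alveolar cells, had values of -0.42, -0.65 and -0.25 in mice 1 to 3 and none in mouse 4. All 3 were below 0, and the mean of -0.44 ± 0.20 (SD, n = 3) missed the threshold (limma adjusted p = 0.0613). Gjb2, a connexin of epithelia, was also below 0 in every mouse, at -1.24, -0.39, -0.14 and -0.11, with mouse 1 lowest (limma adjusted p = 0.168). Gjc1, a connexin of the heart's conduction system and of blood vessels, was above 0 at 0.75, 1.03 and 0.16 in mice 1, 2 and 4. Its mean was 0.65 ± 0.44 (SD, n = 3; limma adjusted p = 0.0857). Gja5, a connexin of arterial endothelium, stayed between 0.00 and 0.11 as the average of 2 probes. In mouse 3 these probes disagreed, at -0.14 and 0.14. Endothelial markers, 13 of 19 tested, had medians from 0.48 to 1.01 and 8 past the test above 0, Cldn5 among them, and 0 below. The 3 of these 8 with the smallest p were Tmem100, S1pr1 and Tek. With the random block 6 passed, without Ramp2 and Emcn. Emcn was also lost whichever mouse was removed, Ramp2 without mouse 3 or 4 and Pecam1 without mouse 4. Gjb1 and Gjc3 had means of 0.13 and 0.10.

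**Figure D3:**
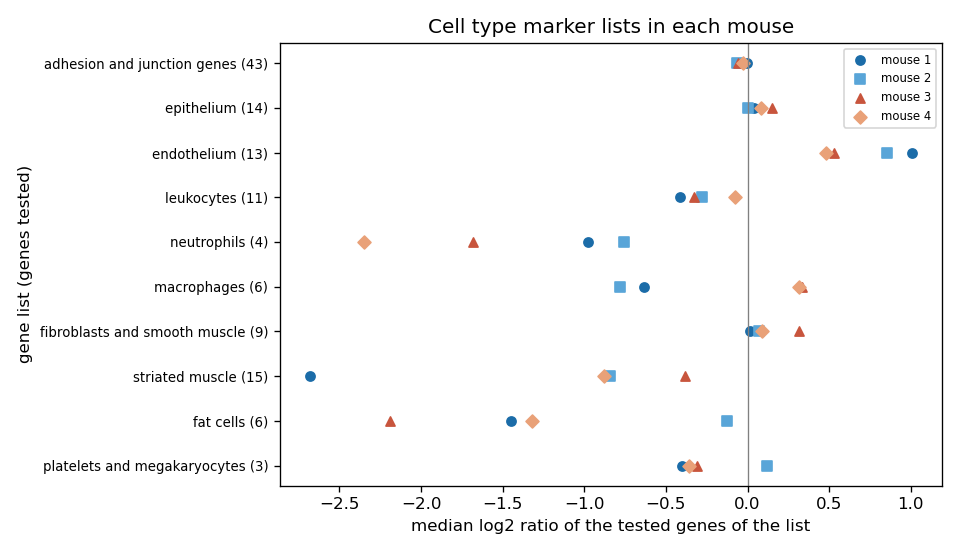
Median log2 ratio (x axis) in each mouse of the adhesion and junction genes and of 9 lists of cell type markers (rows, with the number of genes tested). The adhesion and junction genes have medians between -0.06 and 0.00, whereas the endothelial medians lie at 0.48 or above and the striated muscle medians at -0.38 or below.

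Fibroblast and smooth muscle markers, 9 of 14 tested, had 1 gene past the test above 0 (Postn) and 0 below, and a median of 0.16. Fat cell markers, 6 of 12 tested, had 0 above and 4 below (Gpd1, Plin4, Cidea and Adipoq), at -1.19, and 0 passed with the random block. Platelet markers, 3 of 10 tested, had 0 above and 1 below (Gp9), at -0.48, and 0 passed with the random block. Cav1 had no value in mouse 4 and Tnnc2 none in mouse 3, so most of their fits without 1 mouse rested on 2 values. Of the marker genes past the test, Tmem100, S1pr1, Tek, Cav1, Epcam, Postn, S100a8, Tnnc2 and Myl1 passed limma whichever mouse was removed. Each of the others was lost in at least 1 such fit, at adjusted p (limma) reaching 0.132. The part of these cells in the members' values was not tested.

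Of the 43 members, 16 lay on 1 side of 0 in all mice with a value, 37.2%, beside 46.7% of all genes. A value over 2-fold on at least 1 array was found in 6 members, 14% of them, beside 10.1% of all genes: Itgb2, Cdh1, Cdh2, Cldn4, Gjb2 and Gjc1. Cdh1 and Itgb2 exceeded it on 2 arrays, those of mice 3 and 4, and the others on 1. The count uses averages of probes, and 1 probe of Cldn10, not counted here, had 1.04 in mouse 4. If the deposited values were natural logarithms, 2-fold would be a smaller cut and more members would exceed it. The share of all genes at that cut was not counted.

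Several probes were present for 8 of the 83 genes, and for some the probes disagreed. One Cldn10 probe had values of 0.48, 0.99 and 1.04 in mice 2 to 4, at a mean of 0.84 ± 0.31 (SD, n = 3). The other had -0.80, -0.11, -0.26 and -0.07 in mice 1 to 4, at -0.31 ± 0.33 (SD, n = 4). The 2 sets of values did not overlap, and the gene's averaged mean of 0.06 describes neither probe. The 3 Itgav probes had means of -0.01, 0.32 and -0.07. Of the Itgb1 probes, 1 had values of -0.87 and -0.63 in mice 3 and 4, where the other had -0.25 in mouse 4 and none in mouse 3. Both Itgb6 probes stayed between -0.23 and 0.15.

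**Figure D4:**
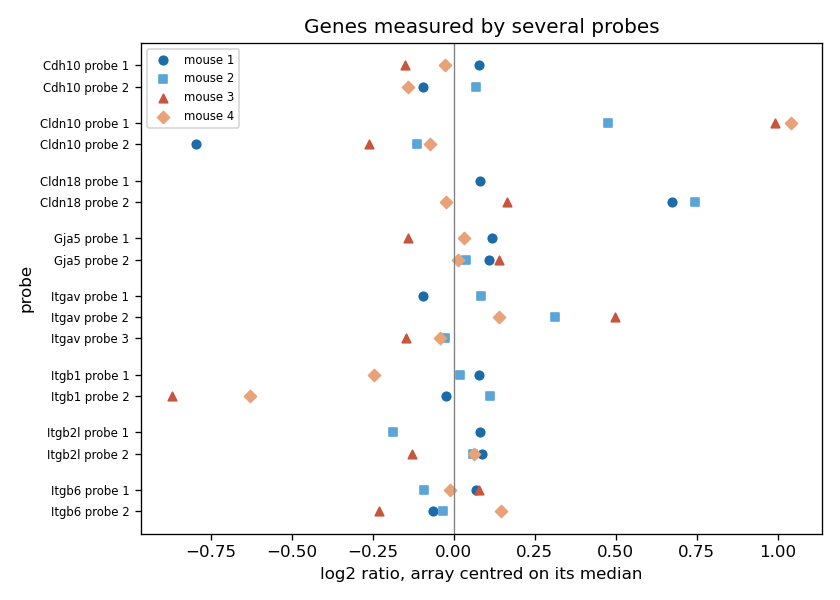
Log2 ratio (x axis) of each probe (rows) in each mouse for the 8 adhesion and junction genes with several probes. The 2 Cldn10 probes lie on opposite sides of 0, whereas the Itgb6 probes stay between -0.23 and 0.15.

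The other 40 of the 83 genes had too few values for the test: 15 had 2, 12 had 1 and 13 had 0. Ctnnb1 apart, no value of these genes went beyond 0.50 on either side of 0, the farthest being Itga9 at 0.50 in mouse 1. The leukocyte subunits Itgam, Itgal and Itgb7 had 1 value each, at 0.05, 0.02 and 0.02, and Itgae had -0.07 and -0.13. Itga2b, the platelet subunit, had 0.29 and -0.17. Itga3, a laminin receptor subunit of epithelia, had 0.11 and 0.03, and Cdh13, a cadherin without a cytoplasmic tail, -0.02 and -0.09. Gja4, Cldn1, Itgb5 and Tjp3 were among those with 0 values. The rule behind empty spots was not stated in the labels.

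Partners of these proteins were counted from lists of focal adhesion, integrin ligand, adherens junction and desmosome, tight junction and pannexin genes. Of 62 tested, 6 passed above 0 and 2 below, 12.9% in all, beside 12.5% of all genes, so the partners' share was near the background. With the random block of mice, 3 of the 62 passed, 4.84%, beside 4.79% of all genes: Cav1, Ptprm and Epcam. Of 19 focal adhesion genes, 1 passed above 0 and 0 below: Cav1, a gene of caveolae that is also among the endothelial markers, at 0.91 ± 0.18 (SD, n = 3). Talin and vinculin, which join integrins to actin, did not pass, with Tln1 at -0.36 and Vcl at 0.17 (limma adjusted p = 0.114 and 0.147). Of 13 integrin ligand genes, 1 passed above 0 and 0 below: Icam2, a ligand of leukocyte integrins on endothelium, at 0.91 ± 0.45 (SD, n = 4; limma adjusted p = 0.0301). Vcam1, a ligand of Itga4 integrins, missed the threshold at -0.62 ± 0.58 (SD, n = 4; limma adjusted p = 0.116).

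Of 10 adherens junction and desmosome genes, 1 passed above 0 and 0 below: Ptprm, a receptor phosphatase that binds cadherin complexes, at 1.34 ± 0.32 (SD, n = 4; limma adjusted p = 0.00747). Of 18 tight junction genes, 3 passed above 0 and 2 below. The epithelial adhesion gene Epcam had values of 0.83, 0.64, 0.72 and 0.66, at a mean of 0.71 ± 0.09 (SD, n = 4; limma adjusted p = 0.00745). Ocln, the tight junction strand protein occludin, had a mean of 0.45 ± 0.20 and the scaffold gene Patj of 0.63 ± 0.30 (SD, n = 4). Below 0 were Sympk, which also acts in RNA processing, at -0.48 ± 0.18, and Amotl1 at -0.33 ± 0.14 (SD, n = 4). Epcam was above 0 in every mouse. Of 2 pannexin genes, 0 passed limma and 0 had an unadjusted p under 0.05. Cav1 had no value in mouse 4, so its fits without mouse 1, 2 or 3 rested on 2 values, the minimum there. Of the 8 partners, Ptprm, Epcam and Cav1 passed limma whichever mouse was left out. Ocln and Amotl1 were lost in every such fit, Icam2 without mouse 1, 3 or 4, Patj without mouse 1, 2 or 3 and Sympk unless mouse 1 was the one removed, with adjusted p (limma) reaching 0.140.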

How the data were processed

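Each spot has 1 deposited value for each array, a ratio on a log scale read here as log2 from its range. Which RNA is on top, the base of the logarithm, the dyes and any background correction or normalization by the authors are unstated in the labels, and 0 other columns of per-sample values were present. Of 17280 spots, 9427 to 12136 had a value per array, and medians before centring lay between -0.009 and 0.029. Signal over background is not part of the table used here.

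Probe names came from the platform's annotation, and symbols in it can be old; all 83 member symbols matched a RefSeq gene table. Each array was centred on its median, probes of 1 symbol were averaged per array, and genes with values on at least 3 of 4 arrays were fitted in limma 3.58.1 under R 4.3.3 (mean against 0, lmFit, eBayes, two-sided, Benjamini-Hochberg over all 8384 genes). The script was tested on simulated data.

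The members and lists were chosen with earlier results of these data known. Named were members past the test, the 2 largest means of each family, a fixed list of lung-relevant members, members beyond 0.5 on both sides of 0, and up to 4 partners per list that passed; Amotl1, Nppb, Adipoq and the other members and partners were named after their values were seen. Of the marker lists, genes past the test are named without values, apart from Cldn5, a left-out gene, and the partners Cav1 and Epcam. Ptprc and Lcp1 of the leukocyte list were named after their values were seen. Alternatives were no centring, scaled arrays, other minimums of arrays, other probe rules and robust eBayes. Mice 1 and 2 and mice 3 and 4 were also taken as a random block, and each mouse was left out. In the fits without 1 mouse, values on 2 arrays were enough.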

Additional observations from a re-analysis of the deposited data

Results flagged for a closer look

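Of 30 adhesion and junction genes with 4 values, 1 had a mouse far from the other 3 by Dixon's criterion. Cldn7 had -0.042 in mouse 3, whereas the other mice lay at 0.15, 0.15 and 0.14, and the gap was 0.934 of the whole range. Chance marks about 1 in 20 such groups, and the distance is small on the log2 scale.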

How the results depend on the processing

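The count of 0 members past limma was unchanged without centring, with scaled arrays, with the median of probes or 1 probe per gene, with robust eBayes and with the random block of mice, where all genes passed at 12.6%, 14.1%, 12.5%, 13.1%, 12% and 4.79%. With values required on all 4 arrays, 1 of 30 members passed below 0 (Itga8; 17.6% of all genes), and with 2 arrays enough, 1 of 58 above 0 (Ctnnb1; 10.1%). Leaving out a mouse gave 0 to 2 members above 0, the 2 being Itga2 and Itgb2 without mouse 2 (6.83% of all genes), and 0 below. Without mice 1, 3 and 4, 0 members passed, beside 3.78%, 3.53% and 3.97% of all genes. Over all genes, 645 passed above and 403 below 0. With the random block 286 and 116 did (consensus correlation 0.304), and without 1 mouse 198 to 411 above and 86 to 162 below. The members' median of -0.05 was -0.015 with 4 values required, -0.075 with 1 probe per gene and -0.082 to -0.024 without 1 mouse. Of the 43 members' means, 8 changed sign in at least 1 alternative, none of them past the test. With 1 probe per gene these were Itgav (-0.072), Cldn10 (-0.31) and Itgb2l (0.0195), and without centring Itgb2l (0.0013). Over the fits without 1 mouse they were Itgb6 (-0.046 to 0.0018), Tjp1 (-0.36 to 0.035), Ctnna1 (-0.29 to 0.008), Cdh22 (-0.14 to 0.043), Cldn10 (-0.084 to 0.34), Itga5 (-0.14 to 0.04) and Itgb2l (-0.044 to 0.026). With the random block, 5 of the 8 partners (Icam2, Ocln, Patj, Sympk and Amotl1) and the marker genes Gpd1, Plin4, Cidea, Adipoq, Cd52, Gp9, Hrc, Nppb, Ramp2 and Emcn no longer passed. Amotl1 was also lost without centring, and the marker gene Adipoq with scaled arrays or with 2 arrays enough. Requiring 2 or 4 arrays changes the genes tested, and leaving out a mouse the number of samples; other causes were not tested. No paired analysis was possible because there is 1 group of mice and 1 pool.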
